A study of Mus musculus with 4 samples.

Results

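The genes described here encode translation factors and aminoacyl-tRNA synthetases. They were chosen by symbol alone, as every gene whose name begins as an initiation factor (eIF1 to eIF6) or elongation factor (eEF1 or eEF2), the release factors Etf1 and Gspt, the synthetases (names ending in ars or ars2, and Eprs) and the synthetase scaffolds (Aimp). The rule found 52 of the 3117 genes in the deposited tables. All 52 were listed at the transcription start site (TSS), among 3112 genes, and 49 at the transcription end site (TES), among 3030. The readthrough symbol EEF1AKMT4-ECE2 was kept apart. By name the 52 genes fell into 22 initiation factors, 4 regulators of initiation, 3 elongation factors, 2 methyltransferases of elongation factors, 2 release factors, 12 cytosolic synthetases and scaffolds, and 7 mitochondrial synthetases.

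The values came from mammalian native elongating transcript sequencing (mNET-seq), which sequences the short RNA held by immunoprecipitated RNA polymerase II (Pol II) after nuclease digestion of chromatin. The 2 groups were Carm1 KO cells and WT control cells, both of B16F10, an established mouse melanoma line; Carm1 is an arginine methyltransferase, and the labels do not say whether the knockout line is 1 clone. In each condition 3 sets of cells, pooled before immunoprecipitation per the labels, gave 1 library per condition for Pol II phosphorylated on serine 2 of its tail (Ser2P), a mark of elongating polymerase, and 1 for the Pol II tail itself. Each table gives, for each gene, a Ser2P ratio in Carm1 KO cells and one in control cells, and the comparison between them asks how loss of Carm1 altered it. The targeted gene was not analysed here. What the Ser2P signal was divided by is not given in the sources used here, so a change may lie in either signal.

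With 1 library per group no test was possible and no spread between replicates exists, so every comparison describes these libraries only. Read depth is unknown. A change is log2(Carm1 KO / control), and a gene is called higher or lower past 1.5-fold. Most genes of the tables had a higher ratio in Carm1 KO cells, with a median change of 1.17 at gene starts and 0.85 at gene ends. The scale between libraries is not given, so each gene is also placed against that median. Values are coarse. Among the translation genes above 0, 22 in Carm1 KO and 23 in control cells had exactly the TSS ratio of another gene, and 8 in Carm1 KO and 10 in control cells did so at the TES. Of all 3112 genes at the TSS, 1599 in Carm1 KO and 1183 in control cells were above 0 and shared their ratio. Of all 3030 at the TES, 754 in Carm1 KO and 672 in control cells did. Of the 10 melanocyte genes looked for to check the line, 6 were listed at the TSS and 4 at the TES, Tyr, Pmel and Mlana among both.

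Translation begins when initiation factors bring the first tRNA and the small ribosomal subunit to a messenger RNA. Elongation factors then deliver each charged tRNA and move the ribosome on, and release factors end the chain. Aminoacyl-tRNA synthetases charge each tRNA with its amino acid, with separate sets of enzymes for most amino acids in the cytosol and in mitochondria. When amino acids are short or misfolded protein builds up, kinases that phosphorylate eIF2 slow initiation and raise the transcription factor Atf4. Many cytosolic synthetase genes are known Atf4 targets, through a composite C/EBP-ATF element. Others of the translation genes are known targets of Myc, which binds the E-box.

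Promoter sequences were at hand for 41 of the 52 genes, from RefSeq on GRCm38.p6, as windows from 250 bases before to 50 after the annotated start. Those of 7 synthetases are shown. Aars, Iars and Tars hold both motifs marked here, and their changes at the TSS were below the median of all genes. Mars is shown for a like change without either motif, and Dars for the highest TSS change among the cytosolic synthetases. Ears2 and Lars2 moved furthest at the TES, in opposite directions. Each stretch runs 5′ to 3′ from 160 bases before to 30 after the start. Capitals mark the E-box (CACGTG) and the core of the C/EBP-ATF element (TTGCATCA), searched on both strands.
Aars: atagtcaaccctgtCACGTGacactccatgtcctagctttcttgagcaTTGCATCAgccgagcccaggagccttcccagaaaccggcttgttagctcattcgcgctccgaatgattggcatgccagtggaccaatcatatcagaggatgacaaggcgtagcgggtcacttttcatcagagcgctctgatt
Iars: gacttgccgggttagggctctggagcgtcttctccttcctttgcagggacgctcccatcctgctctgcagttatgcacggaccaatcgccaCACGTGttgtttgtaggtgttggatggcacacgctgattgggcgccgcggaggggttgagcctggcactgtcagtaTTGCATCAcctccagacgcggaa
Tars: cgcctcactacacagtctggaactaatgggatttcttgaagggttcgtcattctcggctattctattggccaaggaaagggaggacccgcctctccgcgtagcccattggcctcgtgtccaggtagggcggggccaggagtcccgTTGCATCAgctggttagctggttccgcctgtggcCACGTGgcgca
Mars: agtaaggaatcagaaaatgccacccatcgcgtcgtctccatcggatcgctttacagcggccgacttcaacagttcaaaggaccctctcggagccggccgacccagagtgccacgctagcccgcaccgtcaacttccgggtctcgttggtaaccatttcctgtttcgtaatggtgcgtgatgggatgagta
Dars: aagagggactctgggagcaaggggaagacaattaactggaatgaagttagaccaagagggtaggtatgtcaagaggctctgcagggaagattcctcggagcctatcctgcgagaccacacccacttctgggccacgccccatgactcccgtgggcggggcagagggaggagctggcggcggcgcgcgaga
Ears2: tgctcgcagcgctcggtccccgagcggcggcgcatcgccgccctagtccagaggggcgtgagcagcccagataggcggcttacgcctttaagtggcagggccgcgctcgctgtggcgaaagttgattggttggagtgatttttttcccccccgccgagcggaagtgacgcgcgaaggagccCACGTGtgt
Lars2: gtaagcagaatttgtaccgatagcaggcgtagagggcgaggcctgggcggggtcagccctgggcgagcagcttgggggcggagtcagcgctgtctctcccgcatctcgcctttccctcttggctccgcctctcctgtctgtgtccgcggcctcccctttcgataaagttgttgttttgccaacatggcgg
The Aars stretch is chr8:111033682-111033871 on the plus strand, that of Iars chr13:49681970-49682159 on the plus strand and that of Tars chr15:11399629-11399818 on the minus strand. The Mars stretch is chr10:127311757-127311946 on the minus strand and that of Dars chr1:128417387-128417576 on the minus strand. The Ears2 stretch is chr7:122067057-122067246 on the minus strand and that of Lars2 chr9:123366767-123366956 on the plus strand. The windows of the deposited ratios are not given, so these stretches need not be the sequence they cover.

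The C/EBP-ATF core was present in 3 of the 41 promoters (7.32%), those of Aars, Iars and Tars, which all belong to the 9 cytosolic synthetase and scaffold genes with a sequence. It was present in 14 of 2529 promoters of genes in the tables (0.554%) and in 0.929% of all 27025 promoters. The first base of the core lay 112 bases before the start in Aars, 15 before it in Tars and at base 8 after it in Iars. All 3 promoters also held an E-box. In all, 10 of the 41 promoters (24.4%) held an E-box, against 340 of the 2529 (13.4%) and 7.24% of all promoters; the others were those of Ears2, Eef1akmt4, Eef2, Eif3a, Eif4a1, Eif4g1 and Eif4h. The letters CTTTCC, as in the pyrimidine tracts that begin many ribosomal protein messages, were in 0 of 41 windows from 20 bases before to 20 after the start, sense strand only, and in 1.98% of those of the tables' genes. CTTTTC was in the Aars window alone, and in 1.5% of the windows of genes in the tables. A match is a description of letters and not a binding site.

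At the TSS, 47 of the 52 translation genes were above 0 in both conditions. Of these, 35 (74.5%) were called higher in Carm1 KO cells, where 71.2% of all 2859 genes compared were. Called lower were 4, with Eif4e2, Ears2 and Eif2ak3 among them, which is 8.51%, where 5.6% of all genes were. Each of the 4 had a Carm1 KO ratio that other genes shared exactly, as did 1599 of all 3112 genes at the TSS. The median change was 0.91, with quartiles at 0.51 and 1.33. Against all genes, whose quartiles were 0.46 and 1.89, the median differed by -0.26, and 31 of the 47 changes lay below the median of all genes. Once that median was subtracted, 9 translation genes were higher and 12 lower past 1.5-fold, beside 28.6% and 28.8% of all genes. In Carm1 KO cells 5 of the 52 were listed at 0 (Aimp2, Wars, Eif4enif1, Eef1akmt4 and Eif5a), as were 194 of all 3112 genes (6.23%). Only Eif5a among them was listed at 0 in control cells too.

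**Figure D1:**
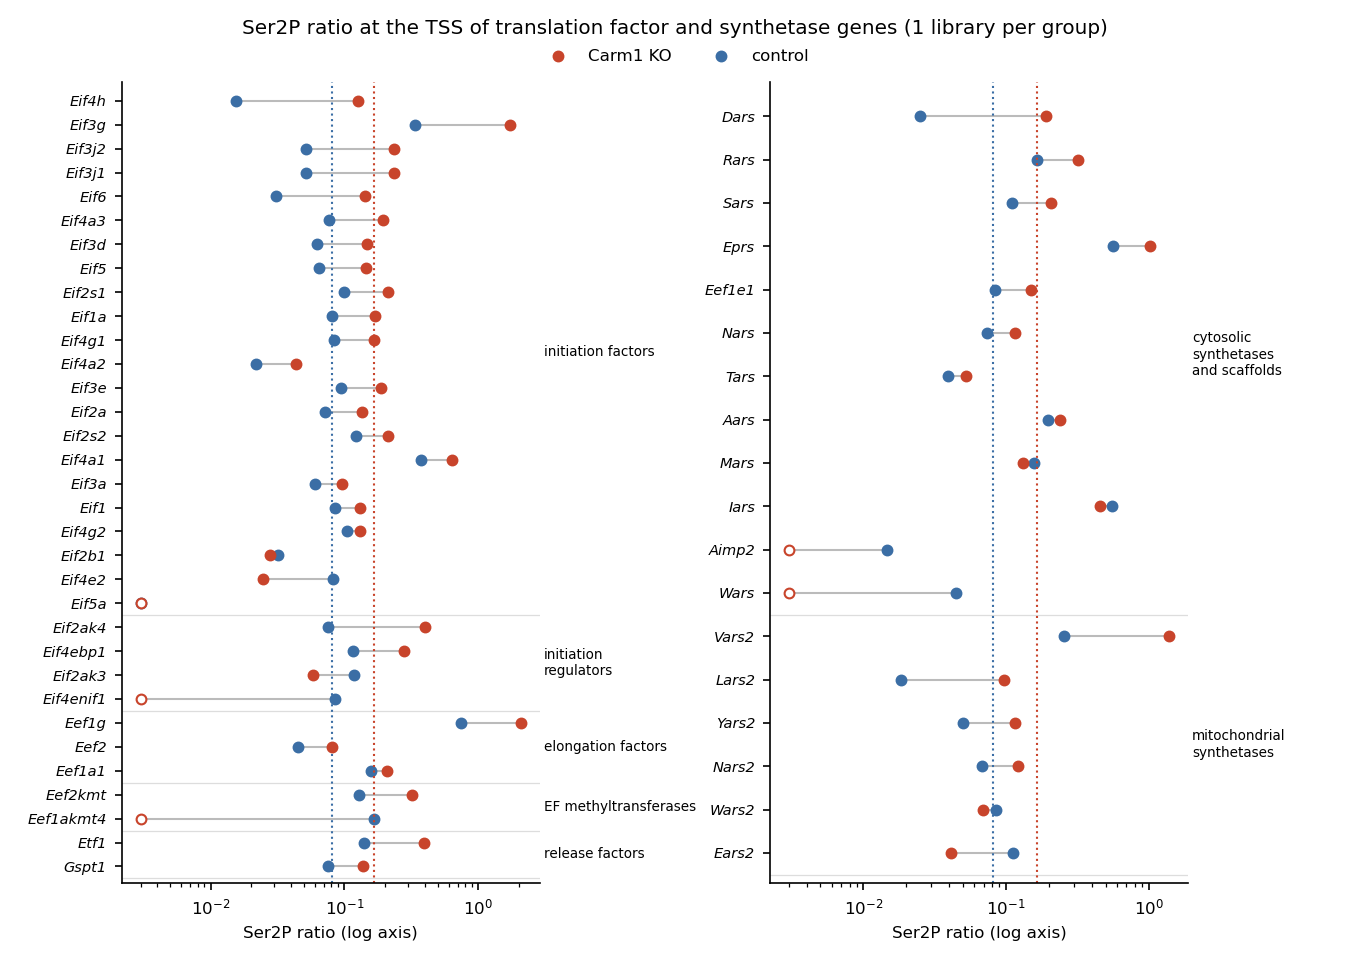
Ser2P ratio at the TSS (log axis) of the translation genes, with Carm1 KO in red and control in blue, 1 library each; open circles are genes listed at 0, drawn at the left edge, and dotted lines are the medians of all genes, 0.166 in Carm1 KO and 0.0809 in control cells. Eef1g, Eif3g, Vars2 and Eprs lie furthest right in Carm1 KO cells, between 1.03 and 2.07.

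At the TES all 49 listed translation genes were above 0 in both conditions. Of these 35 (71.4%) were called higher, where 66.7% of all 3016 genes were, and 3 (6.12%) lower, where 7.13% of all genes were. Those called lower were Lars2, Eif2ak3 and Wars2. The median change was 0.83, beside 0.85 over all genes, and 23 of 49 lay above that median. Once it was subtracted, 5 translation genes were higher and 6 lower past 1.5-fold, beside 11.6% and 22% of all genes. The level itself was a little above that of all genes, with a median TES ratio of 3.56 in Carm1 KO and 2.06 in control cells, against 2.99 in Carm1 KO and 1.71 in control cells over all genes.

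**Figure D2:**
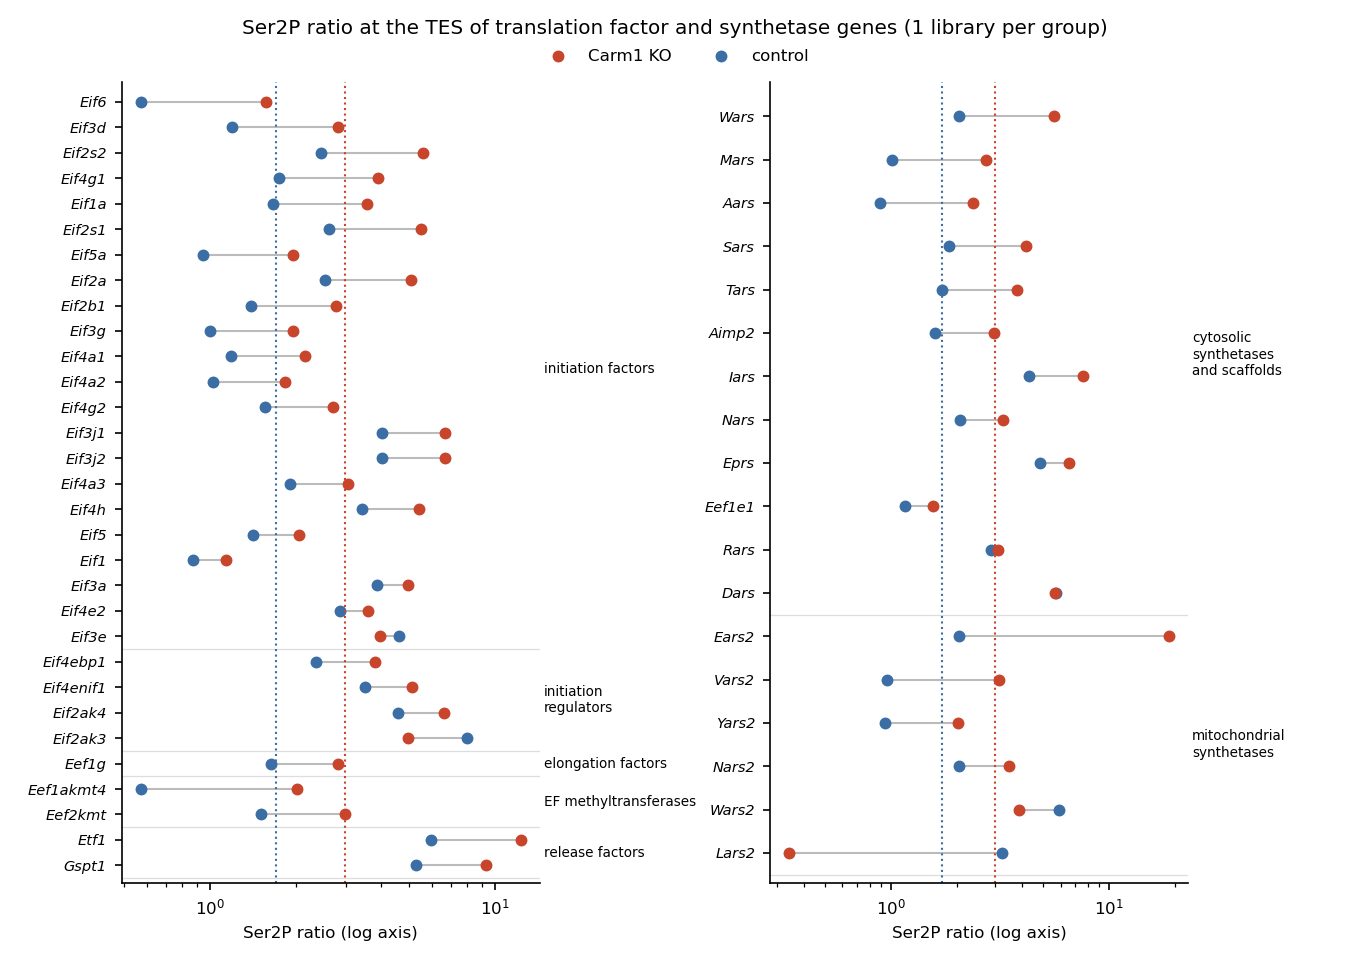
Ser2P ratio at the TES (log axis) of the 49 translation genes listed there, Carm1 KO in red and control in blue, 1 library each; dotted lines are the medians of all genes, 2.99 in Carm1 KO and 1.71 in control cells. Lars2, at 0.341 in Carm1 KO cells, is the lowest point and Ears2, at 18.8, the highest.

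Most initiation factors were called higher. At the TSS 18 of the 21 compared were (85.7%, beside 71.2% of all genes) and 1 was called lower (beside 5.6% of all genes). Their median change, 0.99, lay below the 1.17 of all genes, as did 14 of the 21. At the TES 17 of 22 were called higher (77.3%, beside 66.7% of all genes) and 0 lower (beside 7.13%), with a median of 0.85. The subunits of eIF2, the factor that carries the first tRNA, moved alike. Eif2s1, which encodes the subunit that stress kinases phosphorylate, had a TSS ratio of 0.211 in Carm1 KO and 0.0995 in control cells (log2 change 1.08) and a TES ratio of 5.50 in Carm1 KO and 2.61 in control cells (1.07). Eif2s2 had a TSS ratio of 0.212 in Carm1 KO and 0.122 in control cells (0.80) and a TES ratio of 5.62 in Carm1 KO and 2.45 in control cells (1.20). Eif2b1 encodes a subunit of the exchange factor that reloads eIF2 with GTP. Its TSS ratio was low in both conditions, 0.0280 in Carm1 KO and 0.0321 in control cells (-0.20), while its TES ratio was 2.78 in Carm1 KO and 1.40 in control cells (0.99).

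The eIF3 complex holds the small ribosomal subunit ready for initiation, and 6 of its genes were listed. All were called higher at the TSS (beside 71.2% of all genes), with changes from 0.68 at Eif3a to 2.37 at Eif3g. Eif3g had a TSS ratio of 1.73 in Carm1 KO and 0.335 in control cells, close to its TES ratio in Carm1 KO cells, 1.97, against 1.01 in control cells. At the TES 4 of the 6 were called higher, beside 66.7% of all genes. Eif3a changed by 0.36 there and Eif3e by -0.23, from ratios of 3.94 in Carm1 KO and 4.63 in control cells for Eif3e. Eif3d had a TSS ratio of 0.148 in Carm1 KO and 0.0629 in control cells and changed by 1.23 at either end. Eif3j1, on chromosome 2, and Eif3j2, on chromosome 18, are listed with identical values in all 4 columns, and both are counted among the 6. The shared TSS ratio was 0.235 in Carm1 KO and 0.0514 in control cells, and the TES ratio 6.71 in Carm1 KO and 4.01 in control cells. How reads that fit both were counted is not given, so neither gene's value can be taken as its own.

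The eIF4F complex binds the cap of the messenger RNA and unwinds its leader. Its helicase and scaffold genes changed within a narrow range at the TSS, from 0.77 to 0.99, and at the TES, from 0.84 to 1.15. Eif4a1, the main helicase gene, had a TSS ratio of 0.641 in Carm1 KO and 0.374 in control cells, and Eif4a2, its close paralog, 0.0432 in Carm1 KO and 0.0218 in control cells. Their TES ratios lay closer together, 2.16 in Carm1 KO and 1.185 in control cells for Eif4a1 and 1.84 in Carm1 KO and 1.02 in control cells for Eif4a2. Both host small RNA genes in GENCODE M21, 3 in Eif4a1 and 6 in Eif4a2. Eif4a3, whose product sits in the exon junction complex rather than in eIF4F, changed by 1.34 at the TSS and 0.68 at the TES. Eif4g1, the scaffold gene, had TSS ratios of 0.167 in Carm1 KO and 0.0838 in control cells. Eif4g2, a relative of the scaffold that lacks binding to the cap protein, changed less, from a pair of TSS ratios of 0.130 in Carm1 KO and 0.105 in control cells (0.31), and by 0.79 at the TES.

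The highest and the lowest TSS change among initiation factors lay at genes of cap binding and unwinding. Eif4h encodes a stimulator of the eIF4A helicase and lies on chromosome 5 (134619721 to 134639490, minus strand, GRCm38). Its TSS ratio was 0.127 in Carm1 KO and 0.0155 in control cells, an 8.19-fold higher ratio that starts from a control value below the lower quartile of all genes, 0.0422. At the TES it was 5.42 in Carm1 KO and 3.43 in control cells (0.66). Eif4e2 encodes a cap-binding relative of eIF4E that is known to hold translation down and lies on chromosome 1 (87213914 to 87240488, plus strand). It had the lowest TSS change of all translation genes, -1.72, at a ratio of 0.0249 in Carm1 KO and 0.0817 in control cells, and only 22 of the 2859 genes had a lower one. Its TES ratio was 3.60 in Carm1 KO and 2.85 in control cells (0.34). The Carm1 KO TSS value of Eif4e2 was shared with 4 other genes, while those of Eif4h were not shared.

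Among the remaining initiation factors, Eif6, which keeps ribosomal subunits apart, was called higher at both ends, beside 45.1% of all genes listed at both. Its TSS ratio was 0.141 in Carm1 KO and 0.0309 in control cells (2.19), and its TES ratio 1.57 in Carm1 KO and 0.574 in control cells (1.45), the highest TES change of the class. Eif5, the GTPase activator of eIF2, changed by 1.16 at the TSS and 0.54 at the TES. Eif1, which guards the choice of start codon, had the lowest TES level in Carm1 KO cells of its class, 1.14 against 0.874 in control cells (0.39), and a TSS change of 0.62. Eif1a, of the same step, changed by 1.07 and 1.10, and Eif2a by 0.90 and 1.00. Eif5a, whose product despite its name is known to help elongation, was listed at 0 at the TSS in both conditions and had a TES ratio of 1.95 in Carm1 KO and 0.945 in control cells (1.05).

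The genes that regulate initiation diverged. Eif2ak3 encodes PERK, the eIF2 kinase of the endoplasmic reticulum, and was called lower at both ends, alone among the translation genes. The same call was made at 17 of all genes listed at both ends (0.562%). Its TSS ratio was 0.0584 in Carm1 KO and 0.118 in control cells (-1.02), and its TES ratio 4.95 in Carm1 KO and 8.00 in control cells (-0.69). Eif2ak4 encodes GCN2, the eIF2 kinase that senses uncharged tRNA, and had a TSS ratio of 0.397 in Carm1 KO and 0.0755 in control cells (2.39) and a TES ratio of 6.63 in Carm1 KO and 4.59 in control cells (0.53). The cap-binding inhibitor gene Eif4ebp1 had TSS ratios of 0.278 in Carm1 KO and 0.115 in control cells (1.27) and changed by 0.68 at the TES. Eif4enif1, which encodes the nuclear shuttle of eIF4E, was listed at 0 in Carm1 KO and 0.0857 in control cells at the TSS, a control value that 15 other genes shared. All 4 had TES changes below the median of all genes.

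Of the elongation factor genes only Eef1g was listed at both ends. Eef1g encodes a subunit of the exchange complex of eEF1A. It had the highest TSS ratio of all translation genes, 2.07 in Carm1 KO and 0.742 in control cells (1.48), and a TES ratio of 2.82 in Carm1 KO and 1.64 in control cells (0.78). Eef1a1, which encodes the main carrier of charged tRNA, had a TSS ratio of 0.207 in Carm1 KO and 0.158 in control cells (0.39). Eef2, the translocase gene, had 0.0812 in Carm1 KO and 0.0453 in control cells (0.84). Eef2kmt, for a methyltransferase of eEF2, changed by 1.31 at the TSS and 0.98 at the TES. Eef1akmt4, for a methyltransferase of eEF1A, was listed at 0 in Carm1 KO and 0.166 in control cells at the TSS, and at 2.02 in Carm1 KO and 0.572 in control cells at the TES (1.82). The readthrough symbol EEF1AKMT4-ECE2 had the same TSS values, and a TES ratio of 4.03 in Carm1 KO and 0.343 in control cells (3.55), values shared with 15 and 4 other genes.

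Both release factor genes were called higher at both ends and had high TES ratios. The same call was made at 45.1% of all genes listed at both ends and at 49.0% of the translation genes listed there. Etf1, whose product reads stop codons, had a TES ratio of 12.3 in Carm1 KO and 5.98 in control cells (1.04) and a TSS ratio of 0.395 in Carm1 KO and 0.141 in control cells (1.49). Gspt1, which encodes its GTPase partner, had a TES ratio of 9.35 in Carm1 KO and 5.30 in control cells (0.82) and a TSS ratio of 0.138 in Carm1 KO and 0.0751 in control cells (0.88). Only Ears2 had a higher TES ratio than Etf1 in Carm1 KO cells among the translation genes, and only Eif2ak3 in control cells.

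Cytosolic synthetase genes had small changes at their starts beside those of all genes. Of the 10 compared at the TSS, 6 were called higher and 0 lower, beside 71.2% and 5.6% of all genes. The median change of the 10 was 0.74, a difference of -0.43 from that of all genes. Below the median of all genes lay 9 of the 10. Iars (isoleucine; chromosome 13, 49682100 to 49734267, plus strand) had a TSS ratio of 0.458 in Carm1 KO and 0.554 in control cells (-0.28). Mars (methionine; chromosome 10, 127296221 to 127311786, minus strand) had 0.132 in Carm1 KO and 0.157 in control cells (-0.25). Both were thus slightly lower in Carm1 KO cells, inside the 1.5-fold limit. Aars (alanine) had a TSS ratio of 0.240 in Carm1 KO and 0.197 in control cells (0.29), and Tars (threonine) 0.0521 in Carm1 KO and 0.0392 in control cells (0.41). Nars (asparagine) changed by 0.64, Eef1e1 by 0.84, Eprs by 0.88, Sars (serine) by 0.91 and Rars (arginine) by 0.97. Dars (aspartate; chromosome 1, 128363707 to 128417368, minus strand) was the exception, with a TSS ratio of 0.190 in Carm1 KO and 0.0248 in control cells (2.94), the control value being shared with 2 other genes. Wars (tryptophan) was listed at 0 in Carm1 KO and 0.0447 in control cells, and the scaffold gene Aimp2 at 0 in Carm1 KO and 0.0145 in control cells.

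At their ends 8 of 12 genes of the same class were called higher and 0 lower, beside 66.7% and 7.13% of all genes. The class had a median change of 0.86 and lay on both sides of the median of all genes, 6 above and 6 below. Wars had a TES ratio of 5.60 in Carm1 KO and 2.06 in control cells (1.44), Mars 2.72 in Carm1 KO and 1.01 in control cells (1.43), and Aars 2.39 in Carm1 KO and 0.891 in control cells (1.42). Sars was 2.26-fold and Tars 2.21-fold higher. At the other side were Dars, with a TES ratio of 5.66 in Carm1 KO and 5.68 in control cells (-0.01), and Rars, with 3.10 in Carm1 KO and 2.86 in control cells (0.11). The 5 synthetases that act outside the multisynthetase complex (Aars, Nars, Sars, Tars and Wars) were all called higher at the TES, with changes from 0.66 to 1.44. Of the 7 genes of that complex (Dars, Eprs, Iars, Mars, Rars, Aimp2 and Eef1e1) 3 were, with a median of 0.43. At the TSS the order was the other way, with a median of 0.86 over 6 genes of the complex and 0.52 over 4 outside it. This split was made with the values known. Gene length differs along it. Dars, Eprs and Iars of the complex span over 50 kb, and its other genes from 7144 bp (Aimp2) to 26126 bp (Rars). The 5 genes outside it span from 17006 bp (Nars) to 34145 bp (Wars). Whether length accounts for the split was not tested. Over the whole class the share called higher at the TES was 66.7%, that of all genes. In GENCODE M21 the Aars model ends at the same base as Exosc6, and the end of Mars lies 67 bp from that of Ddit3 on the opposite strand. Whether signal of these neighbours enters the TES ratios was not tested.

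**Figure D3:**
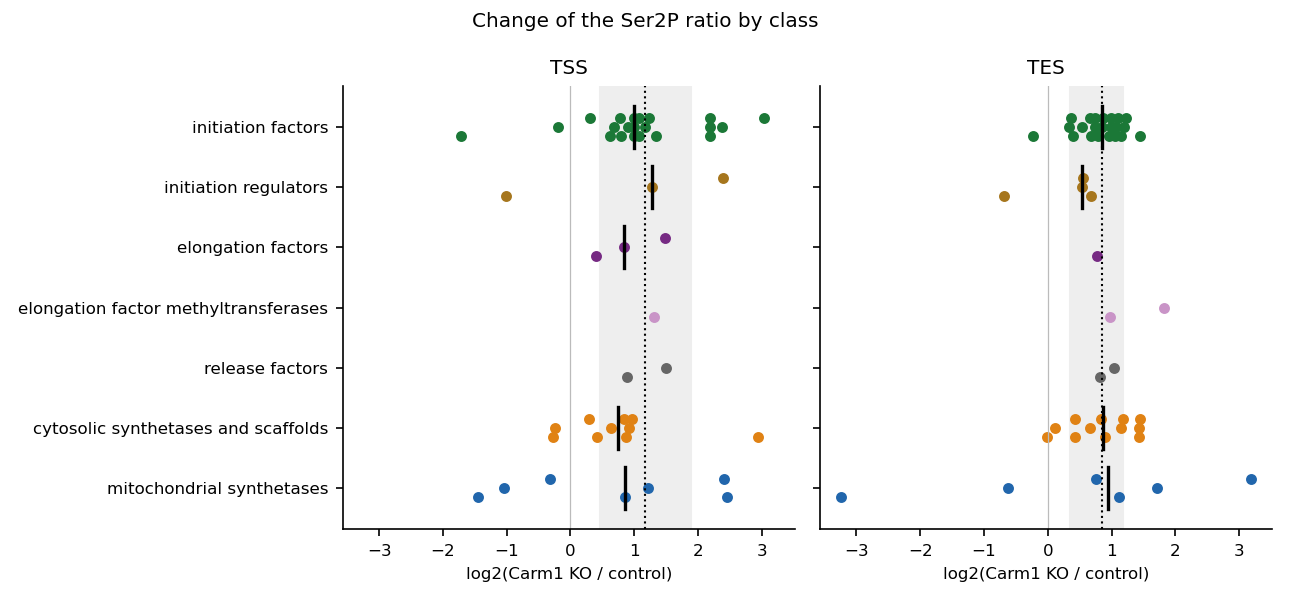
Change of the Ser2P ratio, log2(Carm1 KO / control), of each translation gene by class at the TSS (left) and TES (right); points are genes, short bars are class medians (classes of 3 or more), the grey band spans the quartiles of all genes and the dotted line is their median (1.17 at the TSS, 0.85 at the TES). Mitochondrial synthetases span from -3.25 to 3.19 at the TES, while initiation factors stay between -0.23 and 1.45.

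Mitochondrial synthetase genes spread more widely at the TES than any other class. Lars2 (leucine; chromosome 9, 123366927 to 123462666, plus strand) and Ears2 (glutamate; chromosome 7, 122037213 to 122067263, minus strand) moved in opposite directions at each end. Lars2 had a TES ratio of 0.341 in Carm1 KO and 3.24 in control cells (-3.25), the third lowest change of 3016 genes, and a TSS ratio of 0.0976 in Carm1 KO and 0.0185 in control cells (2.40). Ears2 had a TES ratio of 18.8 in Carm1 KO and 2.06 in control cells (3.19), with 10 genes above it, and a TSS ratio of 0.0413 in Carm1 KO and 0.113 in control cells (-1.45). The control TES ratio of Ears2 was shared with 20 other genes, Nars2 among them, so it is coarse. Its Carm1 KO TES value was its own, but its Carm1 KO TSS ratio was shared with 2 genes. That TSS ratio lay below the lower quartile of all genes, 0.0837. The TSS ratio of Lars2 was shared with 3 genes in Carm1 KO and 1 in control cells. In control cells it lay below the lower quartile of all genes, 0.0422. The control TES ratio of Lars2 was shared with 1 gene. Among all translation genes compared at both ends, Lars2 was the 1 called higher at the start and lower at the end, and Ears2 the 1 called the other way; over all genes listed at both ends the first call was made at 127 (4.20%) and the second at 95 (3.14%).

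At the TES the other mitochondrial synthetases lay between them. Vars2 (valine) was called higher at both ends, beside 45.1% of all genes listed at both. Its TSS ratio was 1.39 in Carm1 KO and 0.254 in control cells (2.46). Its TES ratio was 3.14 in Carm1 KO and 0.962 in control cells (1.71). Yars2 (tyrosine) changed by 1.21 at the TSS and 1.12 at the TES, and Nars2 (asparagine) by 0.85 and 0.76. Wars2 (tryptophan) had a TES ratio of 3.85 in Carm1 KO and 5.91 in control cells (-0.62) and a TSS ratio of 0.0688 in Carm1 KO and 0.0857 in control cells (-0.32). The start of Ears2 lies 88 bp from that of Ubfd1 on the opposite strand, whose share in the ratio was not tested. The pairs for asparagine moved alike at both ends, 0.64 and 0.66 at Nars beside 0.85 and 0.76 at Nars2. Each ratio of Nars2 was shared exactly with other genes, the Carm1 KO TSS ratio with 16 and the control TES ratio with 20, so its changes are coarse. Wars and Wars2 differed at the TES, 1.44 against -0.62. The class had a median of 0.85 at the TSS over 7 genes. Of these 4 were called higher and 2 lower, beside 71.2% and 5.6% of all genes. At the TES the median was 0.94 over 6 genes. Of these 4 were called higher and 2 lower, beside 66.7% and 7.13% of all genes.

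The TES change of the translation genes varied with gene length. Over the 29 genes up to 25 kb in GENCODE M21, 0 had a TES change below 0, and the median was 0.93 over the 12 up to 10 kb and 1.10 over the 17 from 10 to 25 kb. Among the 12 from 25 to 50 kb it was 0.78, with 1 below 0, and among the 8 over 50 kb 0.21, with 4 below 0 (Dars, Eif2ak3, Lars2 and Wars2). All genes in the same length groups had medians of 0.93, 1.02, 0.75 and 0.04, and the translation genes followed the same order of lengths. From the shortest group to the longest, 28 of 966, 47 of 822, 120 of 624 and 274 of 566 of all genes had a TES change below 0. Of the mitochondrial synthetases, Lars2 spans 95740 bp, Wars2 98119 and Nars2 113254, whereas Ears2 spans 30051. Lars2 had the lowest TES change of the 8 translation genes over 50 kb and Ears2 the highest of the 12 from 25 to 50 kb. At the TSS the medians of the translation genes were 1.08, 0.95, 0.90 and 0.86 from the shortest to the longest group. Those of all genes at the TSS did not fall in that order. They were 1.11 up to 10 kb, 1.20 from 10 to 25 kb and 1.27 from 25 to 50 kb. Over 50 kb the TSS median of all genes still lay above that of the shortest group.

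**Figure D4:**
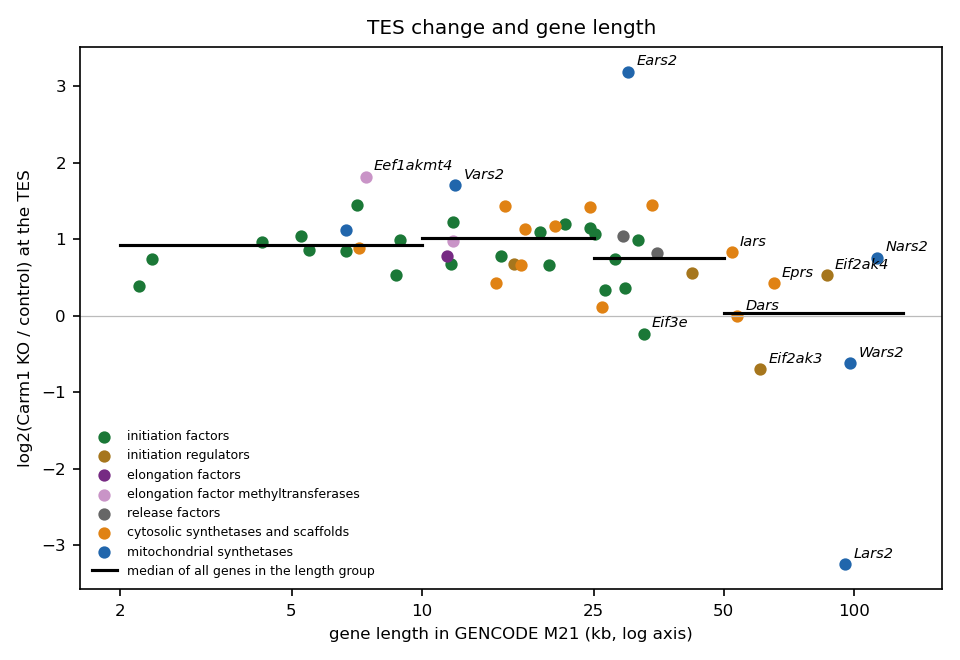
TES change, log2(Carm1 KO / control), of the 49 translation genes against gene length in kb (log axis), coloured by class; black bars are medians of all genes in 4 length groups (0.93, 1.02, 0.75 and 0.04). The 4 genes below 0 over 50 kb are Dars, Eif2ak3, Wars2 and Lars2, and Ears2 lies above all others at 3.19. Of all genes over 50 kb, 274 of 566 were below 0.

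The ratio was higher at the end than at the start of each of the 44 translation genes above 0 in all 4 values, in both conditions. Over all 2775 such genes this held for 2604 in Carm1 KO and 2692 in control cells. The TES ratio was 20.9 times the TSS ratio at the median translation gene in Carm1 KO and 21.5 times in control cells, against 15.7 in Carm1 KO and 19.5 in control cells over all genes. The multiple was smaller in Carm1 KO cells in 28 of the 44 (63.6%), beside 63.4% of all genes. Among the 10 cytosolic synthetases and scaffolds it was smaller in 4 (Dars, Eef1e1, Eprs and Rars). The split by multisynthetase complex was made with the values known. These 4 belong to the complex, but the multiple was larger in Carm1 KO cells at Mars and Iars of the same complex. It was 20.6 in Carm1 KO and 6.43 in control cells at Mars, 16.6 in Carm1 KO and 7.71 in control cells at Iars, 9.95 in Carm1 KO and 4.52 in control cells at Aars, and 72.4 in Carm1 KO and 43.6 in control cells at Tars. At Dars it was 29.7 in Carm1 KO and 229 in control cells. The multiple differed most between the conditions at Lars2, at 3.49 in Carm1 KO and 175 in control cells, and Ears2, at 455 in Carm1 KO and 18.3 in control cells.

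**Figure D5:**
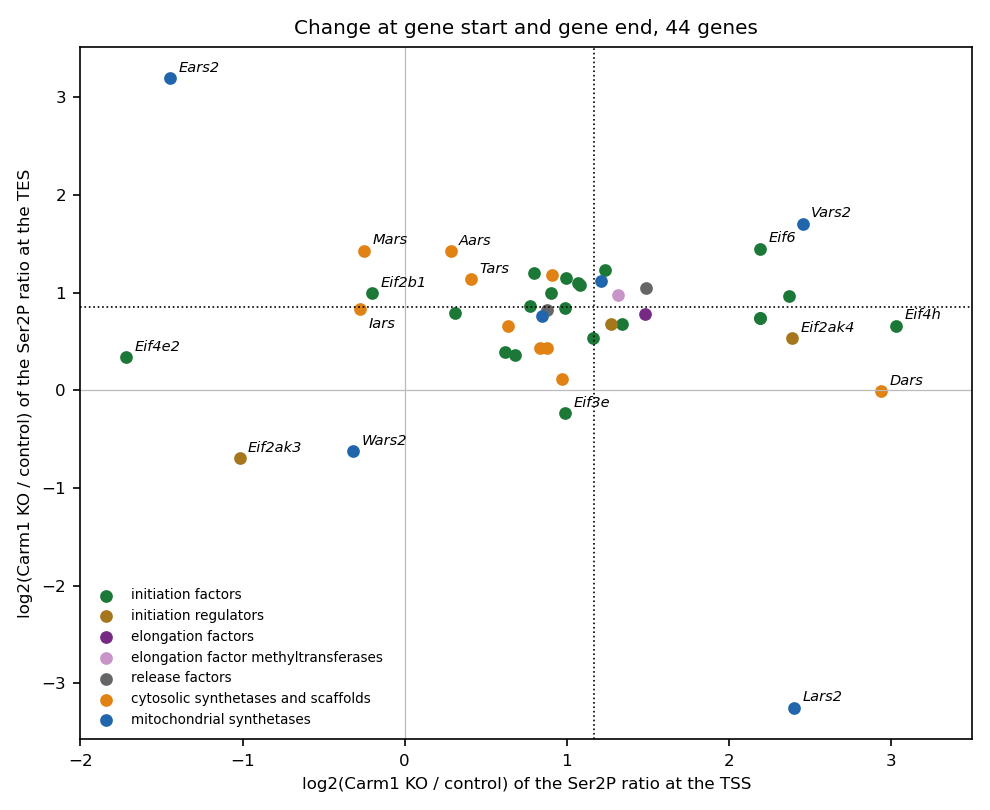
Change at the TES against change at the TSS, both log2(Carm1 KO / control), of the 44 translation genes compared at both ends, coloured by class; dotted lines are the medians of all genes (1.17 and 0.85). Most genes cluster near the crossing of these lines, Ears2 lies at the upper left and Lars2 at the lower right, and Mars, Aars, Iars and Tars lie left of the cluster.

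Some of the translation genes with high ratios at the start have a gene end just upstream. In Carm1 KO cells 8 translation genes had a TSS ratio above the upper quartile of all genes, 0.368 (Eef1g, Eif3g, Vars2, Eprs, Eif4a1, Iars, Eif2ak4 and Etf1). In 3 of the 8 another gene on the same strand ends within 1 kb upstream of the start, Tut1 at 831 bp from Eef1g, Gtf2h4 at 138 bp from Vars2 and Senp3 at 692 bp from Eif4a1. The other 5 of the 8 have none within that distance; Eif3g lies 8586 bp and Eprs 5267 bp from the nearest such end. An end within 1 kb was also found for 2 of the other 44, Eif4g2 and Eif6. Over all genes one was found for 19.0% of genes above the quartile and 1.30% of the rest, and the median TSS ratio in Carm1 KO cells was 1.89 with such an end and 0.154 without. Whether signal of the upstream gene enters the start ratios was not tested.

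Genes in the tables with the C/EBP-ATF core in their promoter had a median TSS change of 0.64 over 14 genes, against 1.19 over 2295 without it. Aars, Iars and Tars, whose small changes prompted the comparison, are 3 of the 14. Without them the median was 1.03 over 11 genes, of which 5 lay above the median of all genes. The 11 ranged from -1.08 at Got1 to 2.63 at Gemin2. At the TES the medians were 0.99 over 13 genes with the core and 0.86 over 2440 without. Leaving out Aars, Iars and Tars there gave 0.92 over 10 genes with the core, of which 5 lay above the median of all genes. TSS medians with and without the E-box were 1.10 and 1.20, and TES medians 0.82 and 0.87.

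Of 46 translation genes outside the naming rule, 19 were listed. At the TSS 13 of the 18 compared were called higher and 3 lower, with a median of 0.87, and at the TES 13 of 19 were called higher and 1 lower, with a median of 0.76. The shares called higher were close to the 71.2% of all genes at gene starts and the 66.7% at gene ends. Called lower were 5.6% of all genes at gene starts and 7.13% at gene ends. Pelo, a rescue factor for stalled ribosomes, had the largest TSS change, 3.33, followed by the initiation ATPase gene Abcf1 (2.85) and the mitochondrial factor gene Gfm2 (2.02). The lowest were Paip2b (-2.45), for an inhibitor of poly(A)-binding protein, Dph5 (-1.04), of diphthamide synthesis on eEF2, and Gatb (-0.84), a subunit of a mitochondrial amidotransferase for tRNA. At the TES Qrsl1, another subunit of that amidotransferase, changed by 1.75, Mcts2 by 1.68 and Mtif2, a mitochondrial initiation factor gene, by 1.53, while Bzw2 changed by -0.62, Dph5 by -0.41 and Paip2b by 0.22.

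Of 21 genes of the integrated stress response, the pathway through eIF2 kinases and Atf4, 11 were listed. At the TSS 6 of the 10 compared were called higher and 1 lower, beside 71.2% and 5.6% of all genes, with a median of 1.44. At the TES 9 of 10 were called higher and 0 lower, beside 66.7% and 7.13%, with a median of 0.86. Atf4 had a TSS ratio of 0.661 in Carm1 KO and 0.176 in control cells (1.90). The amino acid transporter gene Slc7a5 was at -0.71 at the TSS and 0.85 at the TES. Asns, for asparagine synthetase, was at 1.69 and -0.23, and Ddit3, next to the end of Mars, at 0.35 and 1.14.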

How the data were processed

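The deposited data were 2 tables, 1 for the TSS and 1 for the TES, with Ser2P ratios for Carm1 KO and control cells. The authors' headers call these deposited ratios fractions, but they pass 1, so they were read as a linear ratio. The third column, a difference in the authors' unit (no log2 and no score), equalled Carm1 KO minus control within 1e-09 in all 3112 TSS and 3030 TES rows and was not used. Columns were assigned to groups by name. Tools named by the submitters' processing notes are cutadapt 1.18 and TopHat2 2.1.1, with builds mm10 and GRCm38; for windows, divisor, library scaling, strand and gene choice, nothing is given in the sources used here.

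From these values log2(Carm1 KO / control) was computed with no pseudocount, in Python 3.11.15 with pandas 2.3.3. Genes at 0 in either condition were left out of changes. As a check of the arithmetic alone, known changes were planted in the control ratios, and the calculation returned them. No noise was simulated, so the check cannot show how far these ratios vary. Gene models came from GENCODE M21 on GRCm38, where each of the 52 symbols was found in any letter case, and promoters came from RefSeq on GRCm38.p6, with the first listed start per gene. The genes and lists were chosen with earlier results of these data known. Any of the 52 could be named. Full values were meant for the 3 largest changes each way per class and end. They were also meant for genes at 0 and genes called at both ends or in opposite directions. Some of these genes, such as Eif1a and Nars2, are given by their changes alone. Of other pathway genes, the 3 largest changes each way were given. A result on 1 gene is not reported here, though class counts include it. With 1 library per group no test was run. Alternatives were a pseudocount, filters on low or shared values, subtraction of the median of all genes or of genes of like length, leaving out genes near another gene, and a 2-fold limit.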

Additional observations from a re-analysis of the deposited data

How the results depend on the processing

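No paired analysis was possible because each condition has 1 library of each kind. With 1 library per group no replicate could be left out, and depth is unknown. A median counts as moved when it shifts by 1.5-fold or more and a count when it differs by more than 1.5 times; 77 alternative values kept direction and size by this measure, 25 moved and 15 changed sign. The sign changes, and most moves, follow from subtracting a median. With the median of all genes subtracted, TSS medians were -0.26 for all translation genes, -0.17 for initiation factors, -0.33 for elongation factors, -0.43 for cytosolic and -0.32 for mitochondrial synthetases, and 0.10 for initiation regulators; TES medians were -0.0158 for all, 0.00372 for initiation factors, -0.31 for regulators, 0.0123 for cytosolic and 0.0899 for mitochondrial synthetases. With the median of genes of like length subtracted the TSS values were -0.29, -0.19, -0.33, -0.43, -0.29 and 0.17 in the same order, and at the TES -0.00744 for all, -0.065 for initiation factors, -0.21 for regulators, 0.15 for cytosolic and 0.39 for mitochondrial synthetases. Counts of genes higher and lower were then 9 and 12 at the TSS under either subtraction, and 5 and 6 at the TES with the median of all genes and 7 and 4 there with that of like length.

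A 2-fold limit left 19 higher at the TSS, and 17 higher and 1 lower at the TES. The shares of all genes under this and the following settings were not computed. These counts of translation genes therefore cannot be set against all genes. A pseudocount of 0.1 gave 19 higher at the TSS and one of 0.01 gave 8 lower, as genes at 0 then entered; the TSS median of the 4 regulators became 0.18 and 0.15. Without values shared by another gene 15 of 18 genes were higher and 0 lower at the TSS, and 0 were lower at the TES: each gene called lower had a value that another gene shared. Leaving out genes below the lower quartile of mean ratio, or genes near another gene, gave 2 lower at the TSS each. Leaving out Eif3j2, an alternative chosen after seeing the data, moved no value. Elongation factors were too few for a median at the TES. For other moves the cause was not tested.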

Other observations

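The annotated 3′ ends of these genes were read from GENCODE M21 transcripts that end at the last base of the gene model, at hand for 48 of the 52. The poly(A) signal AATAAA was in the last 30 bases of 15 of the 48 (31.2%) and ATTAAA in 10 (20.8%), against 51.5% and 13.1% of 20214 protein-coding genes. The authors' TES positions are not given, so these ends need not be theirs.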
